A study of Mus musculus with 16 samples.

Results

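The sites described here were Foxa1 peaks of day 30 that had no overlapping Foxa1 peak on day 2 and that overlapped a Foxa2 or Foxa3 peak of either day by 1 bp or more. They were chosen by these overlaps, which gave 208 peaks of the 3037 Foxa1 day 30 peaks without a day 2 counterpart (6.85%), of 3331 Foxa1 day 30 peaks in all and of 4839 peaks in the 8 lists of the series. Foxa1, Foxa2 and Foxa3 are forkhead transcription factors with closely related DNA-binding domains. They are known for binding regulatory DNA in closed chromatin during liver development, where the family acts ahead of other hepatic regulators. Hnf4a, the fourth factor of the series, is a nuclear receptor needed for hepatocyte gene expression, and fibroblasts given Hnf4a with a Foxa factor can be turned toward hepatocyte-like cells.

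The cultures were mouse embryonic fibroblasts (MEFs) of the C57BL/6 strain from embryos of 13.5 days post coitum. Each was infected with a single factor (Foxa1, Foxa2, Foxa3 or Hnf4a). On day 2 or day 30 its chromatin was immunoprecipitated with an antibody to that factor and sequenced (ChIP-seq). Every factor and day had 1 ChIP sample with a peak list, and the 8 input samples had no list used here. The labels give no promoter for the introduced factors. Because each factor had its own antibody and its own culture, the factor, the antibody and the culture cannot be told apart in any comparison of lists. Read depth was unknown, so a place without a listed peak may still have been bound, and "late" means only "not listed for Foxa1 on day 2".

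Most of the shared late sites were matched by a list of the same late day, and by 1 paralogue rather than both. Foxa3 day 30 overlapped 127 of the 208 sites (61.1%, exact Clopper-Pearson 95% interval 54.1 to 67.7%) and Foxa2 day 30 overlapped 94 (45.2%, 38.3 to 52.2%). The corresponding shares of all late Foxa1 peaks were 4.18% for Foxa3 day 30 and 3.10% for Foxa2 day 30. Foxa2 day 2 overlapped 9 sites (4.33%, against 0.296% of all late peaks) and Foxa3 day 2 overlapped 1 (0.481%, against 0.0329%). The day 2 lists were shorter, and these counts were not adjusted for list length. Of the Foxa2 peaks, 9 of 23 on day 2 (39.1%, 19.7 to 61.5%) and 95 of 174 on day 30 (54.6%, 46.9 to 62.1%) lay at shared late sites. For Foxa3 these were 1 of 146 (0.685%) and 120 of 265 (45.3%). These overlaps made the set, so the shares describe it and test nothing, and the intervals cover counting error only.

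By paralogue, 111 sites (53.4%, 46.3 to 60.3%) were shared with Foxa3 only, 81 (38.9%, 32.3 to 45.9%) with Foxa2 only and 16 (7.69%, 4.46 to 12.2%) with both. The Foxa3 day 30 list was the longer, with 265 peaks against 174 for Foxa2. With both lists held at the 174 highest-scoring peaks, 166 late sites were shared, 97 of them with Foxa2 (58.4%) and 81 with Foxa3 (48.8%), so the order of the paralogues turned. By day, 205 of the 208 sites (98.6%) were in at least 1 day 30 list of Foxa2 or Foxa3, 10 were in a day 2 list, and 3 were in the Foxa2 day 2 list alone.

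**Figure D1:**
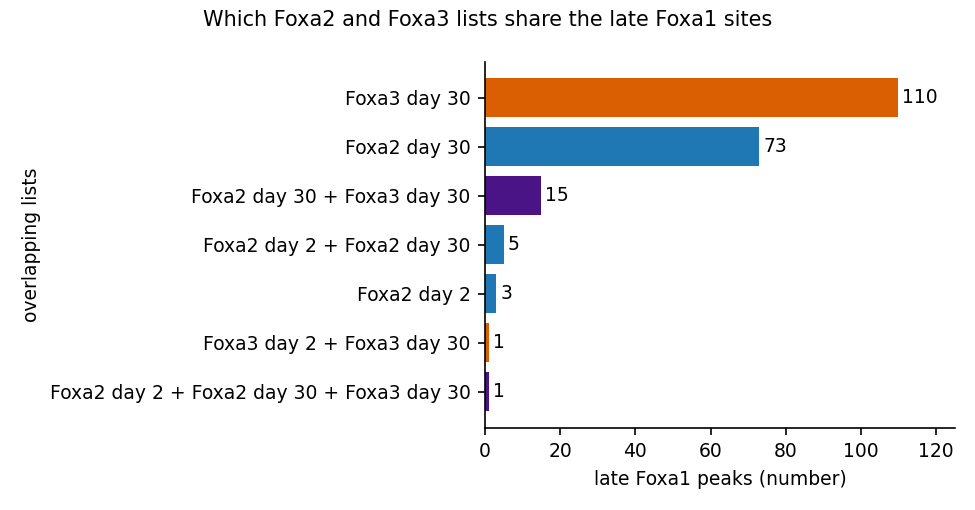
Number of shared late Foxa1 peaks (horizontal axis) for each exact combination of overlapping lists (vertical axis), in blue for Foxa2, orange for Foxa3 and purple for both. Foxa3 day 30 alone accounts for 110 peaks and Foxa2 day 30 alone for 73, while the 4 combinations with a day 2 list hold 10 peaks in all.

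Each peak carries a score of the authors, read here as −log10 of a p-value, so that a higher score marks a peak farther above its background. Scores can be ranked within a list, and levels in lists of unknown depth are not comparable. With a score of 10 or more asked of every list, Foxa1 day 2 included, 107 sites were counted, 36 in a Foxa2 list and 76 in a Foxa3 list. A Foxa1 peak whose day 2 counterpart scored under 10 then counted as late, so some of these sites are not among the 208. The Foxa3 day 2 list, of which 112 of 146 peaks lay in dense blocks of peaks (10 or more peaks of any list chained over gaps of up to 20 kb), did not decide the set. Without it there were still 208 sites. In such blocks lay 3 of the 208, and the number for the other late Foxa1 peaks was not counted.

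Median Foxa1 score was higher at the shared late sites than at the other late Foxa1 peaks. Their Foxa1 day 30 scores ran from 5.08 to 34.1 with a median of 16.5, and those of the 2829 other late peaks from 5.08 to 40.1 with a median of 10.2. With sharing taken as centres within 500 bp, the medians were 13.6 and 10.2, so their difference went from 6.36 to 3.44. The ranges overlapped almost completely and the interquartile ranges slightly, at 11.6 to 21.5 for the shared sites and 8 to 12.6 for the others. A rank of 500 or better in the Foxa1 day 30 list was held by 108 shared late sites (51.9%) and by 253 other late peaks (8.94%). The 96 Foxa1 peaks listed on both days and shared with a paralogue scored higher again, with a median of 25 and a range of 10.2 to 107. These are peaks of 1 sample and not replicates, and no test was made between them.

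The shared late sites were also wider. They were 76 to 698 bp wide with a median of 178 bp, against 114 bp for the other late peaks and 261 bp for the shared peaks of both days. With centres within 500 bp, the median of the shared late sites was 143 bp, and its excess over the other late peaks went from 63.5 to 29 bp. A wide peak has more positions at which another peak can touch it, so width belongs partly to the rule. With the Foxa1 day 30 list divided into 4 groups of similar size by width, the narrowest had 76 to 91 bp, and there 12 of 821 late peaks were shared (1.46%). In the widest group, from 169 bp upward, 111 of 665 were shared (16.7%).

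**Figure D2:**
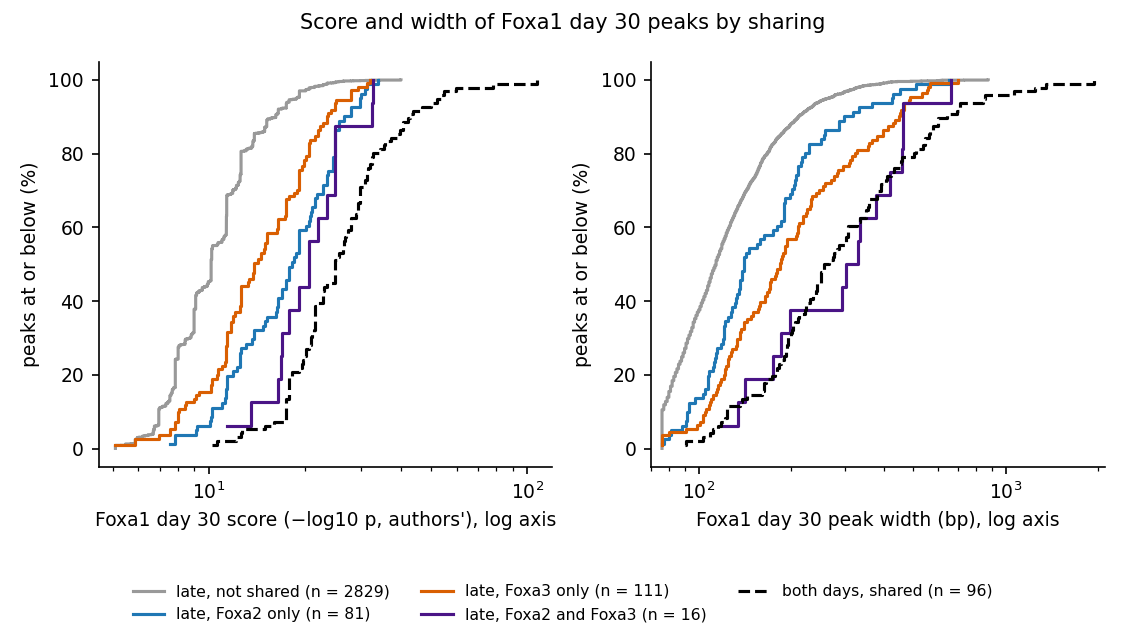
Cumulative share of peaks (vertical axis, percent) at or below a given Foxa1 day 30 score (left, read as −log10 p) or width (right, bp), both on log axes, for late peaks by sharing class and for shared peaks of both days. The curve of unshared late peaks (grey, median score 10.2 and width 114 bp) lies left of the 3 sharing classes over most of its course, and that of shared peaks of both days (dashed, median score 25) lies farthest right in the score panel.

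The shares were also set out by score, with the same list divided into 4 groups of similar size, and then by score and width together. The share of late peaks in a Foxa2 or Foxa3 list was 1.82% (15 of 825) in the lowest group, 2.47% (20 of 811) in the next, 5.51% (44 of 799) in the third and 21.4% (129 of 602, interval 18.2 to 24.9%) in the highest, above a score of about 13.7. Among late peaks of the widest group, 1 of 83 was shared at the lowest scores and 82 of 259 (31.7%) at the highest. Among the narrowest, the numbers were 3 of 296 (1.01%) and 5 of 35 (14.3%). The Foxa2 share went from 0.364% in the lowest score group to 11.8% in the highest, and the Foxa3 share from 1.45% to 12%.

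Foxa1 peaks listed on both days were set beside the late peaks. Of all 294 of them, 96 (32.7%) were in a Foxa2 or Foxa3 list, against 6.85% of late peaks. In the highest score group, where both kinds were numerous, 129 of 602 late peaks (21.4%) and 91 of 200 peaks of both days (45.5%, 38.5 to 52.7%) were in a Foxa2 or Foxa3 list. These overlaps defined the sites, peaks of 1 sample are not replicates, and the shares are a description with no test. Median score and width also differed inside that group, at 17.5 and 155 bp for late peaks against 21.6 and 214 bp, and their part in these shares was not tested. The 3 lower groups hold 18, 30 and 46 peaks of both days. Both paralogues were listed at 16 of 208 shared late sites (7.69%) and at 25 of 96 shared sites of both days (26%, 17.6 to 36%). Within the highest score group these were 14 of 129 (10.9%, 6.06 to 17.5%) and 23 of 91 (25.3%, 16.7 to 35.5%), likewise without a test.

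**Figure D3:**
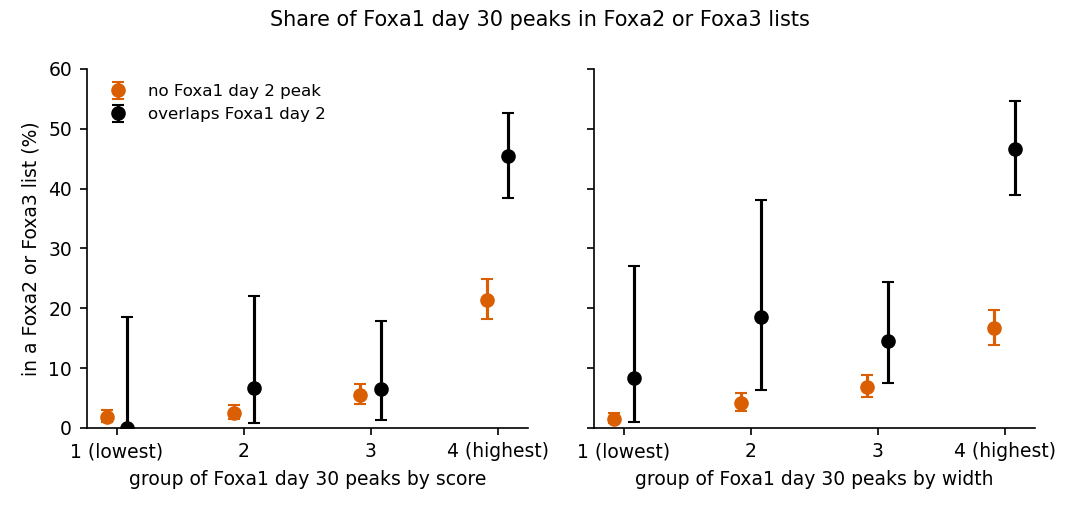
Percent of Foxa1 day 30 peaks in a Foxa2 or Foxa3 list (vertical axis) by group of Foxa1 score (left) or width (right), for peaks without (orange) and with (black) an overlapping Foxa1 day 2 peak; points are shares and bars exact 95% counting intervals. In the highest score group the share is 21.4% for late peaks and 45.5% for peaks of both days.

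The strongest Foxa1 peak of the set lay on chromosome 2 (152223824 to 152223959), with a score of 34.07, the 28th highest rank of the Foxa1 day 30 list. It was listed for Foxa2 on both days, with scores of 9.08 on day 2 and 16.18 on day 30, ranks 8 of 23 and 8 of 174 in those lists, and for Foxa3 on neither day. The next, on chromosome 18 (64779419 to 64779880, Foxa1 score 32.84), was shared with both paralogues at day 30. Its Foxa2 score was 7.58 and its Foxa3 score 13.19, and the centres of those peaks lay 9 and 10.5 bp from the Foxa1 centre. On chromosome 2 (110007691 to 110007984, Foxa1 score 32.51), 3 lists overlapped: Foxa2 day 2 (8.63), Foxa2 day 30 (12.41) and Foxa3 day 30 (8.45). A Foxa1 day 2 peak lay 156 bases away from it. The fourth, on chromosome 5 (132187051 to 132187235, score 32.01), was shared with Foxa3 day 30 only, at a Foxa3 score of 8.13, rank 211 of 265. The fifth place was a tie at 31.37. It was held by a site on chromosome 10 (82787753 to 82787919), shared with Foxa3 day 30 only at a score of 7.78 (rank 226), and by a site on chromosome 5 (75440503 to 75440595), listed for Foxa2 on both days.

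The 81 sites shared with Foxa2 only had a median Foxa1 score of 18.3 and a median width of 141 bp, and 50 of them (61.7%) ranked among the 500 highest Foxa1 day 30 peaks. After the chromosome 2 site already given, the next was the chromosome 5 site with 31.37. It was followed by chromosome 14 (103498082 to 103498309) with 30.97, chromosome 6 (129126718 to 129127004) with 30.04 and, tied at 29.90, chromosome 14 (32475652 to 32475873) and chromosome 3 (30260304 to 30260494). The tied sites differed in Foxa2 day 30 score. It was 18.67 on chromosome 14, rank 6 of that list and the highest at any shared late site, and 8.78 on chromosome 3, rank 66. At the chromosome 5 site the 3 peaks were nearly the same interval: the Foxa1 peak was 93 bp wide, the Foxa2 day 2 peak 64 bp and the Foxa2 day 30 peak 72 bp, and both Foxa2 peaks lay inside the Foxa1 peak. None of the 81 sites had a Foxa3 day 30 peak within 1 kb, and 1 (1.23%) had one within 10 kb. An overlapping Foxa3 peak is excluded by the class itself. Among the 2829 other late peaks, 75 (2.65%) had one within 1 kb and 114 (4.03%) within 10 kb, so few were to be found in either set.

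The 111 sites shared with Foxa3 only had lower Foxa1 scores, with a median of 13.9, and were wider, with a median of 184 bp. Of these, 45 (40.5%) ranked among the 500 highest Foxa1 peaks. Besides the sites on chromosomes 5 and 10 above, the highest score was 29.44 on chromosome 13 (111433754 to 111434308). Chromosome 11 (105079109 to 105079556), chromosome 2 (179503905 to 179504019) and chromosome 9 (83541952 to 83542122) followed, tied at 27.93. In this order, their Foxa3 day 30 scores were 7.74, 9.81, 9.32 and 17.5, at ranks 228, 147, 160 and 31 of 265. The site on chromosome 11 lay 127 bases from a Foxa1 day 2 peak. None of the 111 had a Foxa2 day 30 peak within 10 kb, and 3 (2.7%) had one within 100 kb. Here too the class itself excludes an overlap. Among the 2829 other late peaks, 49 (1.73%) had a Foxa2 day 30 peak within 10 kb and 135 (4.77%) within 100 kb.

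The 16 sites shared with both paralogues were wider, with a median of 316 bp and a range of 119 to 662 bp. Their median Foxa1 score was 20.6, and 13 of the 16 ranked among the 500 highest. At all 16 the Foxa2 day 30 and Foxa3 day 30 peaks overlapped each other as well as the Foxa1 peak. The distance between the Foxa2 and Foxa3 centres had a median of 44.2 bp and a range of 16 to 105 bp. Both peaks had to touch the same Foxa1 peak, and Foxa3 day 30 peaks were 175 bp or wider. The choice of sites therefore favours such overlap and bounds these distances. After the sites on chromosomes 18 and 2, the highest were on chromosome 1 (173432832 to 173433005), chromosome 4 (80775656 to 80776076) and chromosome 6 (31456424 to 31456886), each with a Foxa1 score of 24.96. Their Foxa2 day 30 scores were 12.62, 10.03 and 7.58 and their Foxa3 day 30 scores 14.89, 14.21 and 18.09. Over the 16 sites, Foxa2 scores ran from 6.43 to 12.6 (median 7.58) and Foxa3 scores from 6.91 to 18.1 (median 11.2). The Foxa2 median at sites shared with Foxa2 only was 8.62, and the Foxa3 median at sites shared with Foxa3 only was 9.81.

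The day 2 lists of the paralogues reached 10 of the late Foxa1 sites. Foxa2 or Foxa3 was listed there early, and no Foxa1 day 2 peak overlapped these sites. At the chromosome 2 site starting at 110007691, however, a Foxa1 day 2 peak lay 156 bases away. For 9 of the 10 sites the early list was that of Foxa2. These 9 were strong Foxa1 sites at day 30, with scores of 16.5 to 34.1 and a median of 23.5. At 6 of the 9, Foxa2 was also listed on day 30. They were the 4 sites already given on chromosomes 2 (both), 5 and 14 (103498082), and those on chromosome 7 (107451062 to 107451201, Foxa1 score 23.50) and chromosome 16 (30064201 to 30064375, 21.15). On chromosome 7 the Foxa2 score was 7.45 on day 2 and 10.03 on day 30, and on chromosome 16 it was 8 and 10.29. At 5 of the 6 the Foxa2 peaks of the 2 days overlapped each other, while on chromosome 2 (110007691) they lay side by side within the Foxa1 peak.

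At 3 of the 9 sites, Foxa2 was listed on day 2 and neither paralogue on day 30. They lay on chromosome 1 (145793963 to 145794413, Foxa1 score 20.75), chromosome 8 (93751321 to 93751522, 19.24) and chromosome 11 (20979483 to 20979991, 16.51), with Foxa2 day 2 scores of 8.63, 8.63 and 10.20. The chromosome 11 peak was the fourth highest of the 23 Foxa2 day 2 peaks. All 9 Foxa2 day 2 peaks lay entirely inside the Foxa1 peak they overlapped. Foxa2 day 2 peaks at Foxa1 sites of both days numbered 9 as well, of which 6 overlapped a Foxa2 day 30 peak, against 5 at the late sites and 0 of the 5 outside the Foxa1 day 30 list.

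The single site of Foxa3 day 2 was on chromosome 6 (43287576 to 43287932, Foxa1 score 18.91). Its Foxa3 score was 7.65 on day 2, from a 69 bp peak, and 12.52 on day 30, from a 278 bp peak, and both lay inside the 357 bp Foxa1 peak. The other 145 Foxa3 day 2 peaks lay at no late Foxa1 site, and 142 of the 146 (97.3%) overlapped no Foxa1 day 30 peak at all.

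Seen from the paralogue lists, the shared late sites took up the larger part of the overlap with Foxa1. Late peaks were 3037 of the 3331 Foxa1 day 30 peaks, and each late peak with an overlap is a shared site by definition. Per Foxa1 peak the order was the other way. Foxa2 day 30 overlapped 3.10% of late peaks and 19.0% of peaks of both days, and Foxa3 day 30 overlapped 4.18% and 21.1%. Of the 174 Foxa2 day 30 peaks, 95 (54.6%, 46.9 to 62.1%) lay at shared late sites, 59 (33.9%) at Foxa1 sites of both days and 20 (11.5%) outside the Foxa1 day 30 list. For the 265 Foxa3 day 30 peaks these numbers were 120 (45.3%, 39.2 to 51.5%), 61 (23.0%) and 84 (31.7%); 1 Foxa3 peak that touched both kinds of Foxa1 site was counted as late. Foxa2 scores were similar in the 3 places, with medians of 7.95, 8.21 and 7.79. The Foxa3 medians were 9.94 at shared late sites, 12.2 at sites of both days and 10.1 outside Foxa1. Highest scores lay elsewhere than at the late sites in both lists: 33.6 for Foxa2 and 32.8 for Foxa3, at sites of both days, against 18.7 and 22.5 at shared late sites.

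The scores of the overlapping peaks were then compared with the Foxa1 score site by site. Across the 94 sites in the Foxa2 day 30 list, Pearson's r between the Foxa1 and Foxa2 scores was 0.52 and Spearman's rho 0.49. Across the 127 sites in the Foxa3 day 30 list they were 0.11 and 0.13. These are descriptions across sites of 1 sample each. Sites are not independent replicates, the lists are cut at a score of about 5, and the difference between the coefficients was not tested. The 3 highest Foxa3 scores, looked up after the values were seen, show the spread. The Foxa3 score was 22.48 on chromosome 14 (62595152 to 62595260), where the Foxa1 score was 8.05. On chromosome 9 (61656264 to 61656676) it was 20.22 and the Foxa1 score 24.21, and on chromosome 12 (16369045 to 16369500) it was 19.10 and the Foxa1 score 12.52. The chromosome 9 site lay in a dense block of peaks, as defined above.

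**Figure D4:**
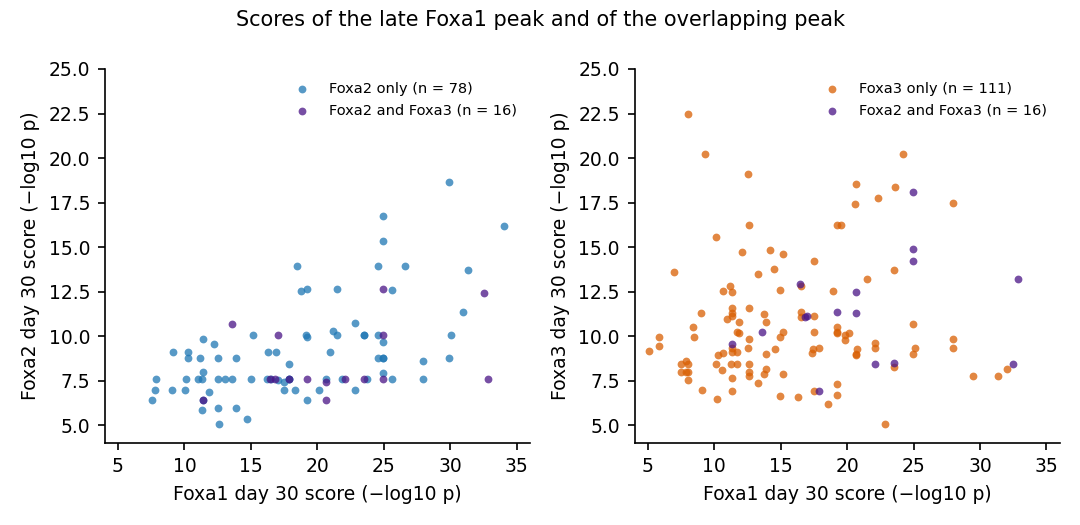
Score of the overlapping Foxa2 (left) or Foxa3 (right) day 30 peak (vertical axis) against the score of the late Foxa1 peak (horizontal axis), both the authors' scores, read as −log10 p, 1 point per site and coloured by sharing class. Foxa2 scores spread upward at high Foxa1 scores (rho 0.49), while Foxa3 scores rise little with the Foxa1 score (rho 0.13).

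The overlapping peaks were mostly centred close to the Foxa1 peak. The distance between centres had a median of 23.8 bp for Foxa2 day 30 (quartiles 12.8 and 37.8 bp) and 41.5 bp for Foxa3 day 30 (21.0 and 77.2 bp). For Foxa2, 79 of 94 centres (84.0%) lay within 50 bp, and for Foxa3, 72 of 127 (56.7%). The overlap that the rule asks for bounds these distances, and the bound is wider for Foxa3, whose day 30 peaks were 175 bp or wider with a median of 237 bp against 78.5 bp for Foxa2. The Foxa2 peak lay wholly inside the Foxa1 peak at 63 of 94 sites (67.0%) and the Foxa3 peak at 28 of 127 (22.0%). The Foxa3 peak covered the whole Foxa1 peak at 39 sites (30.7%), and the Foxa2 peak did so at 3. There was no preferred side: on the genome's coordinate axis 46 Foxa2 centres lay to the right and 47 to the left, and 64 and 63 Foxa3 centres.

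**Figure D5:**
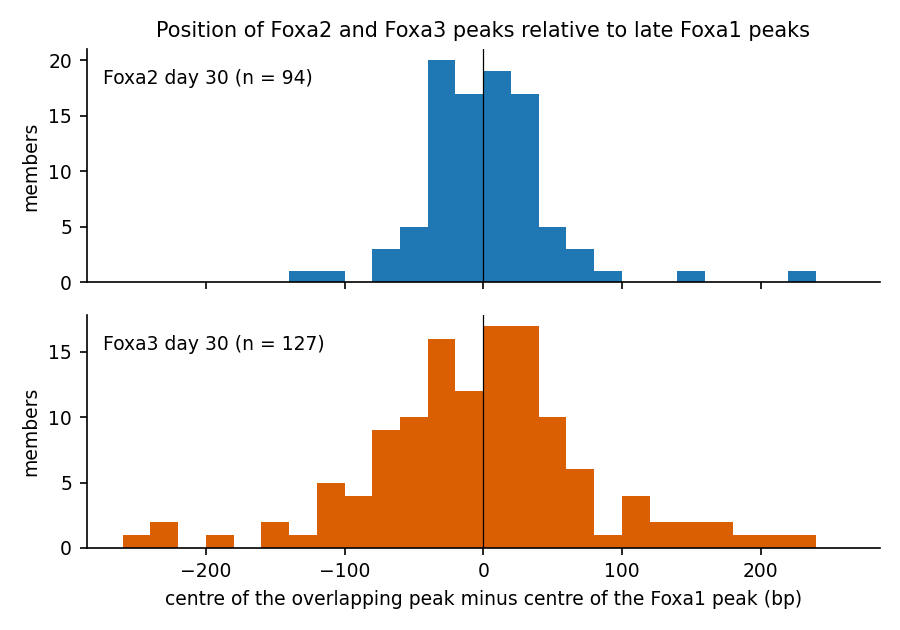
Number of sites (vertical axis) by position of the centre of the overlapping Foxa2 (top) or Foxa3 (bottom) day 30 peak relative to the centre of the late Foxa1 peak (horizontal axis, bp, bins of 20 bp). Of the Foxa2 centres 84.0% lie within 50 bp and of the Foxa3 centres 56.7%, on both sides about equally.

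A few sites sat at the edge of the rule. The smallest overlaps were 3 bp on chromosome 2 (163470473 to 163470588, Foxa1 score 19.24), 15 bp on chromosome 8 (85889480 to 85889709, 17.50) and 16 bp on chromosome 14 (17560994 to 17561126, 7.53), all with Foxa3 day 30. The late peaks nearest to a Foxa2 or Foxa3 peak without touching it were on chromosome 2 (168357902 to 168358006, score 6.95), chromosome 13 (53825669 to 53825787, 7.84) and chromosome 18 (79469229 to 79469368, 6.17), with gaps of 5, 6 and 7 bases. In all, 24 unshared late peaks lay within 100 bp of a Foxa2 or Foxa3 peak and 77 within 500 bp. On the other edge, 5 of 208 shared late sites (2.4%) lay within 500 bp of a Foxa1 day 2 peak, against 93 of 2829 other late peaks (3.29%). The closest shared site was on chromosome 1 (75334477 to 75334904, score 23.59) at 5 bases. The remaining 203 shared sites stayed late with a margin of 500 bp.

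The widest and weakest sites were as follows. The widest peaks were on chromosome 13 (60274863 to 60275560, 698 bp, Foxa3 only), chromosome 3 (23979125 to 23979786, 662 bp, both paralogues) and chromosome 12 (70468365 to 70469018, 654 bp, Foxa2 only). The lowest Foxa1 scores were 5.08 on chromosome 3 (97849081 to 97849201), 5.86 on chromosome 11 (40603893 to 40604057) and 5.86 on chromosome 17 (87601839 to 87601914), all shared with Foxa3 only. Their Foxa3 scores were 9.14, 9.94 and 9.46, near the median of the Foxa3 day 30 list of 10.3. The lowest Foxa1 score at a site in a Foxa2 list was 7.53.

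Some neighbouring sites shared a partner and are not separate places. In 7 cases 1 Foxa3 day 30 peak overlapped 2 late Foxa1 peaks, 60 to 93 bases apart. On chromosome 9, for example, in a dense block of peaks, a 401 bp Foxa3 peak (61656375 to 61656775) joined Foxa1 peaks with scores of 24.21 and 9.32. No Foxa2 peak did so, and 1 late Foxa1 peak held 2 Foxa2 day 30 peaks. Another Foxa1 day 30 peak lay within 500 bp of 51 of the 208 sites (24.5%, 18.8 to 30.9%), against 485 of the 2829 other late peaks (17.1%, 15.8 to 18.6%). By class this held for 11 of the 81 Foxa2-only sites (13.6%), 36 of the 111 Foxa3-only sites (32.4%) and 4 of the 16 shared with both. The neighbour was itself a shared late site at 14 of the 208, all of them Foxa3-only sites. Peaks touched by the same Foxa3 peak enter the set together, so the rule contributes to these shares. With peaks within 500 bp merged in every list, 196 shared late sites were counted.

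The sites were spread over all 20 chromosomes that held late Foxa1 peaks. Chromosome 11 held the most, 22 of its 169 late peaks (13.0%, 8.34 to 19.0%), followed by chromosome 14 with 16 of 141 (11.3%) and chromosome 9 with 16 of 167 (9.58%). Chromosome 4 had the lowest share, 7 of 206 (3.4%, 1.38 to 6.88%). Chromosome X held 1 of its 28 late peaks, on a Foxa3 site. The order of chromosomes is a description and was not tested. No shared late site overlapped a Hnf4a peak of either day. As an approximate upper limit, 0 of 208 allows a share of up to 1.44% (3 counts of the total), which is not a Clopper-Pearson limit. For the other late Foxa1 peaks the number was 1 of 2829. Hnf4a day 30 peaks lay within 1 kb of 4 shared late sites (1.92%, 0.526 to 4.85%) and of 13 other late peaks (0.460%, 0.245 to 0.785%). The shares were closer in wider windows, at 2.4% and 1.34% within 10 kb and 4.81% and 4.14% within 100 kb.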

How the data were processed

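Per the submitters' processing notes, BWA 0.6.2, MACS2 2.1.0 and bedtools 2.16.2 and the mouse build mm9 were used, without their roles; the peak threshold, the use of the inputs and pooling are not given in the sources used here. The deposited tables have no header and give position, name and score. For the unit of this score, −log10 of a p-value was inferred, since no deposited value is under 5 and 1315 of 3331 Foxa1 day 30 scores equal a Poisson tail at 1 background rate to within 6e-05. That rate was 0.8. At other rates, 93 of 174 Foxa2 day 30 scores (rate 0.63) and 54 of 265 Foxa3 day 30 scores (20.4%, rate 2.0) matched in this way. Start and end, in bp on mm9 and in no other unit, are printed 1-based, as the authors deposited them plus 1 at the start. No sequence, motif or gene annotation of mm9 was used here, and sites are given by position alone.

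Overlaps were computed with Python 3.11.15, NumPy 2.4.6, pandas 2.3.3, SciPy 1.17.1 and Matplotlib 3.10.9, and the counting was tested on 20 simulated lists, all counted right. Ties in rank share the better rank, and sites tied at the last named place are named too. Shares carry exact Clopper-Pearson 95% intervals. No hypothesis test was made, since each factor and day had 1 sample and the overlaps chose the sites. Members and lists were chosen with earlier results of these data known. Named sites were the 5 with the highest Foxa1 score overall and per sharing class, all in a day 2 paralogue list, the 3 widest, lowest-scoring and least overlapping, and the 3 nearest late peaks outside; others are said to be chosen later, or are examples of a count. Alternatives were an overlap of 50% of the shorter peak, centres within 500 bp, a 500 bp margin to Foxa1 day 2, a score of 10 or more, merging within 500 bp and day 30 lists of equal length. Chosen after the data were seen were paralogue peaks cut to 100 bp and leaving out day 2 lists.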

Additional observations from a re-analysis of the deposited data

How the results depend on the processing

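Across 8 main values and their alternatives, 44 of 56 recomputed values stayed within the counting interval of the reported one and 12 moved outside it. For the number of sites the limit was 1.5 times. No value changed sign, which only the differences in score and width could do. Leaving out the Foxa3 day 2 list could change no value, since its single site was also in the Foxa3 day 30 list. The order of the paralogues did turn, with day 30 lists of equal length. With a score of 10 or more in every list, 107 sites were counted, 33.6% of them in a Foxa2 and 71.0% in a Foxa3 list. Some of them had a Foxa1 day 2 peak that scored under 10. The 107 sites were 5.63% of the peaks that counted as late under this filter. Their median width exceeded that of the other late peaks by 81 bp in place of 63.5 bp. With day 30 lists of equal length, the shares were 58.4% for Foxa2, 48.8% for Foxa3 and 5.47% of late peaks. With centres within 500 bp, 9.05% of late peaks were shared, and the excess of the median was 3.44 in score in place of 6.36 and 29 bp in width. Merging within 500 bp gave a width excess of 87 bp. The cause of these shifts was not tested. With paralogue peaks cut to 100 bp, 196 sites were counted, and without both day 2 lists 205. The planned counts of motifs and of gene starts were not run, since no genome of the files' build was used. No paired analysis was possible because each factor and day had 1 sample. Depth was unknown, which limits every statement on a site missing from a list.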
